A study of Homo sapiens with 39 samples.

Results

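Cytosolic ribosomal proteins were taken as the genes whose symbols are RPL or RPS followed by a number, with an optional A or X, together with RPSA, RPLP0, RPLP1 and RPLP2. The rule used names only and no measured value. It found 37 of the 1115 genes of an epigenetic knockout library (26 RPL and 11 RPS genes, 370 guides, 10 per gene) and 77 of the 19113 genes of a whole-genome library (46 RPL and 31 RPS genes, 308 guides, 4 per gene). All 37 genes of the smaller set are among the 77, so the epigenetic library holds part of the ribosome and the whole-genome library nearly all of it.

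Guides were counted by sequencing in pools of A375 cells, a human BRAF-mutant melanoma line, in which each guide directs Cas9 to cut its gene. All cells already lacked a subunit of Mediator, the complex that links transcription factors to RNA polymerase: MED12, in its kinase module, or MED23, in its tail. The epigenetic library was screened in MED12 knockout cells sampled at day 0 and at days 8 and 14 in DMSO or 2 µM vemurafenib, an inhibitor of mutant BRAF, and in MED23 knockout cells sampled at day 0 and at day 14 in DMSO or 1 µM vemurafenib. The whole-genome library was screened in MED12 knockout cells with the same days and arms as the other MED12 screen. Each of the 13 groups held 3 libraries. The labels give no cells with intact Mediator, do not say whether a knockout line was 1 clone, and do not say whether libraries of a group came from separate infections or cultures, so p-values may measure technical spread only. Guide DNA does not show which genes a cell expresses, so the cell type could not be checked against markers.

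Ribosomal proteins coat the rRNA of the small (40S) and large (60S) subunits, and most are needed to assemble a subunit at all. A cell that loses one keeps dividing only while its old ribosomes last, and the guide that cut the gene then disappears from the pool. When assembly of the large subunit stalls, RPL5 and RPL11, which carry the 5S rRNA, can bind and block MDM2, a ubiquitin ligase. Inherited loss of 1 copy of several of these genes causes Diamond-Blackfan anaemia.

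The mRNAs of ribosomal proteins are known to begin with a C and a run of pyrimidines, the TOP motif, through which the mTOR pathway sets their translation. The sequences below show this feature in the genes described next; the guide sequences themselves were not used here. Each runs from 20 bases before a RefSeq transcription start (GRCh38.p14) to 10 bases after it, 5′ to 3′, and capitals mark the unbroken run of C or T from the start base.
RPL11 (chr1:23691786-23691815, + strand): tcggccggaagctccgctttCTCTTCCTgc
RPLP0 (chr12:120201102-120201131, - strand): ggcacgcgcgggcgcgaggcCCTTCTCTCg
RPL18 (chr19:48619169-48619198, - strand): cgcccaccccagcccgttctCTCTTTCCgg
RPS9 (chr19:54200838-54200867, + strand): cagccgtggcgcttccgcgcCTCTTTCTCa
RPS14 (chr5:150449730-150449759, - strand): tcgctccgccccctcccactCTCTCTTTCC
RPL31 (chr2:101002269-101002298, + strand): ctcccacaatccttcgcgctCTTCCTTTCC
RPL27 (chr17:42998399-42998428, + strand): cctcaccggggtgaaaggttagcggaagtg
Of the 77 genes, 62 had a start in the table. A start at C followed by an unbroken C or T run, 5 or more bases in all, was present at a start of 46 of them (74.2%), against 5.14% of all 27305 genes with a start. RPL27, shown last, has no run at its listed start.

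Libraries held 16385695 to 20814734 reads in the MED12 screen of the epigenetic library, 22846325 to 28994690 in the MED23 screen, and 47766947 to 87591804 with the whole-genome library. In the 3 vemurafenib libraries of the MED23 screen a single guide held 6.61%, 9.67% and 15.2% of the reads. PCR reads without molecular identifiers are not independent molecules, so the spread between libraries, not counting error, was used throughout.

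The pools did not start at the same point. In MED23 knockout cells at day 0 the ribosomal protein guides held 3.04%, 3.04% and 3.10% of the reads, close to their 3.03% of the guides, and their median count was 0.987, 0.995 and 1.04 times that of guides against other genes. In MED12 knockout cells the same guides held 1.82%, 1.79% and 1.81% at day 0, with median counts 0.442, 0.418 and 0.435 times those of other gene guides. In the whole-genome screen they held 0.157%, 0.154% and 0.158% of the reads for 0.398% of the guides (0.279, 0.254 and 0.298 times). Ranked by mean counts per guide at day 0, members lay below the 10th percentile of genes in 18 of 37 cases for the MED12 screen, 2 of 37 for the MED23 screen and 55 of 77 for the whole-genome library. RPL4, RPL7 and RPL11 were lowest in the MED12 screen (16.1, 20.4 and 23.2 CPM per guide), and RPS24 and RPL14 were among the highest (115 and 94.3 CPM), all scaled by library size alone, without TMM. The time between infection and day 0 is not given in the sources used here, the plasmid pools were not analysed here, and their part in these levels was not tested.

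**Figure D1:**
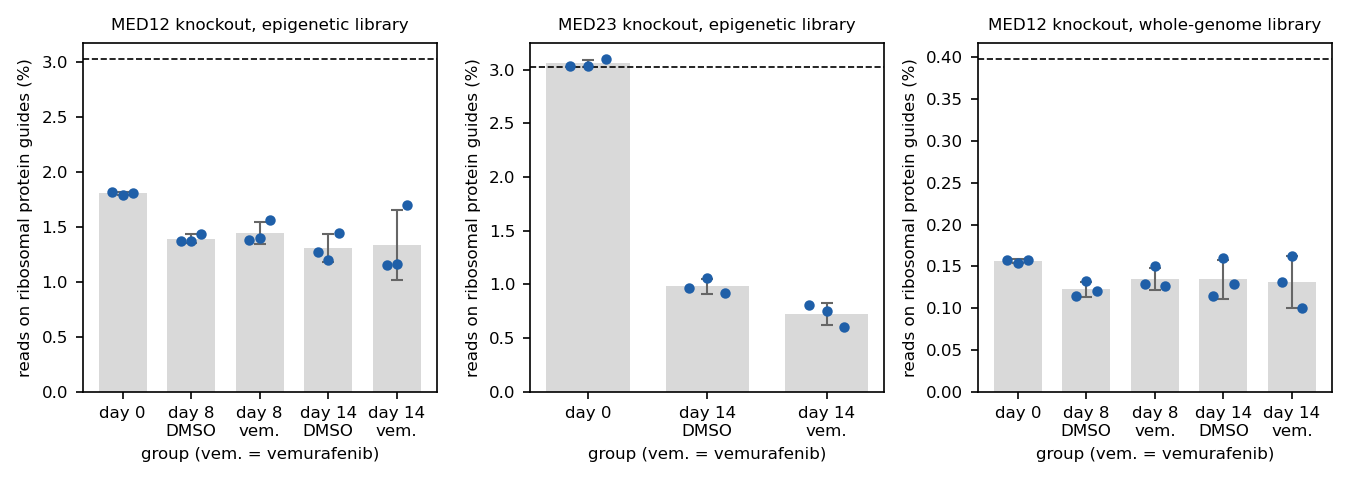
Percent of all reads on ribosomal protein guides (vertical axis) in each group of the 3 screens (horizontal axis). Points are libraries, bars their mean, error bars the SD, and the dashed line is the share of these guides in the library (3.03% and 0.398%). Only the day-0 libraries of the MED23 screen lie at the line. By day 14 in DMSO they fall to 0.92% to 1.06%, while the MED12 screen goes from about 1.8% to between 1.2% and 1.45%.

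Growth in DMSO from day 0 to day 14 removed ribosomal protein guides most clearly in MED23 knockout cells. Of the 37 genes 29 fell (edgeR/RRA adjusted p below 0.05, a test per guide combined into a rank test per gene), against 12.6% of all 1115 genes called lower. The median over genes of the median guide's log2 fold change was -2.98, against 0.06 over all genes, and 35 of 37 genes were negative. In the 3 DMSO libraries 90.3%, 90.8% and 91.9% of the 370 guides lay below their level in the day-0 library of the same number. Among the guides, 81.9% were lower by more than 1 (log2), against 23.4% of guides for other genes and 1.32% of control guides. Scaled to control guides, the members' median was -4.01 with all 37 negative, and 8 passed (5.38% of all genes called lower).

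RPL5 was the member with the smallest p. Its 10 guides summed to 749.8, 749.1 and 747.4 CPM (read counts scaled by TMM and library size) at day 0 and to 83.7, 71.1 and 64.6 CPM at day 14 in DMSO. The groups do not overlap, all 10 guides were lower, and the gene score (mean log2 CPM over guides) changed by -3.62 ± 0.06 (SE, 3 libraries per group, edgeR/RRA adjusted p = 7.26e-07). RPL11, its partner in the 5S particle, went from 501.2, 501 and 535.7 CPM to 23.4, 34.4 and 68.3 CPM. This was the largest change in gene score of the set (-4.22 ± 0.43, edgeR/RRA adjusted p = 0.00506), and again all 10 guides were lower by more than 1 (log2).

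By median guide the most lost genes were RPLP0, RPL13, RPL11, RPL18 and RPS9 (-4.50, -3.97, -3.94, -3.91 and -3.86, edgeR/RRA adjusted p = 0.00412, 0.0245, 0.00506, 0.0023 and 0.000511). RPLP0 is the base of the stalk that recruits elongation factors. It combined the lowest median with a modest loss of reads, from 610.6, 602.4 and 606 CPM to 409.3, 340.8 and 376.3 CPM. Of its 10 guides 8 lay between -5.97 and -2.04, and guides 6 and 10 at 0.89 and 1.10. Reads on those 2 guides (112 and 227 CPM at day 14) made up most of what remained. RPL18, a protein of the large subunit, went from 749.7, 747.1 and 776 CPM to 118.6, 123.8 and 160.6 CPM, and all 10 guides were lower by more than 1 (log2). RPS9, which binds early to the rRNA of the small subunit, went from 532.4, 531.3 and 528.6 CPM to 87.5, 115.2 and 84.0 CPM.

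Loss was spread over both subunits. Of the 11 genes of the small subunit 8 fell, with a median of -3.12, and of the 26 genes of the large subunit 21 fell, with a median of -2.95. Both genes of the 5S particle fell, as did the 3 measured proteins of the stalk: RPLP0, RPLP2, an acidic protein that makes up the stalk's arms (-2.40, edgeR/RRA adjusted p = 0.00227), and RPL12, which sits at its base (-2.16, adjusted p = 0.0389). Along the peptide tunnel RPL26 (-3.40), at its exit, and RPL4 (-2.86), which lines its wall inside the subunit, fell, and RPL31 (0.02), also at the exit, did not pass (edgeR/RRA adjusted p = 0.00106, 0.00301 and 1). Of 12 measured genes tied to Diamond-Blackfan anaemia 9 fell (median -3.02). They include RPS26 (-3.38), RPL35A (-2.38), RPS7 (-2.08) and RPL27 (-2.92), with edgeR/RRA adjusted p of 0.00412, 0.0266, 0.0245 and 0.000202. RPS24 and RPL31 were among the members of that list that did not pass.

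**Figure D2:**
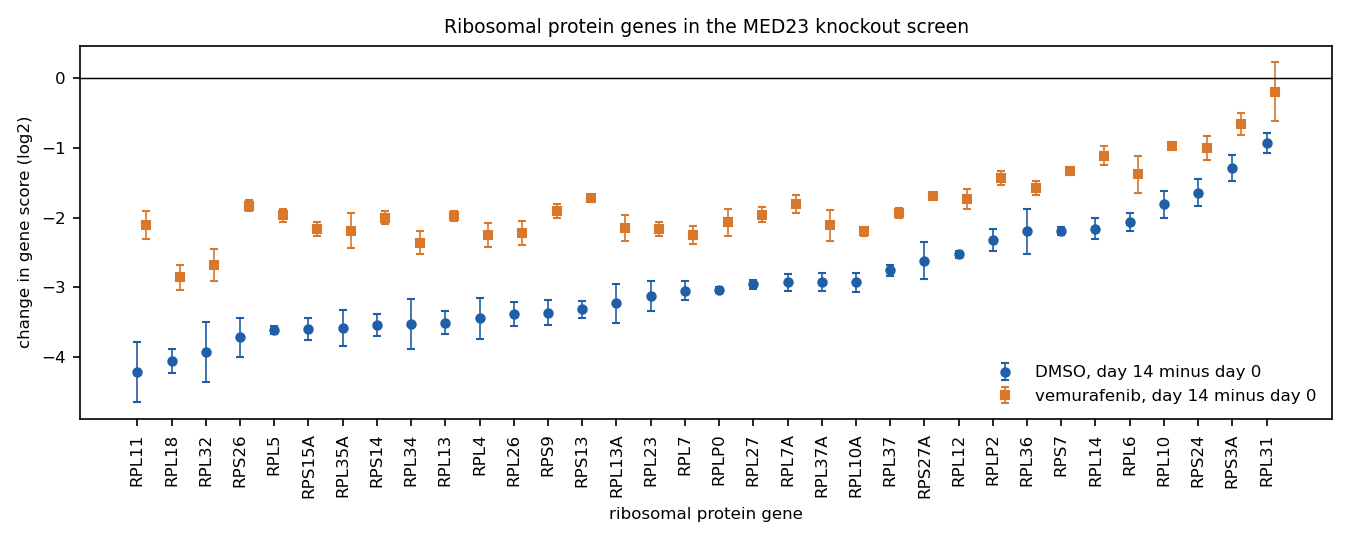
Change in gene score from day 0 to day 14 (log2, vertical axis) for 34 of the 37 ribosomal protein genes of the MED23 screen (horizontal axis, sorted by the DMSO value), in DMSO (circles) and in 1 µM vemurafenib (squares). Error bars are the SE from 3 libraries per group. DMSO values run from -4.22 for RPL11 to -0.93 for RPL31, and each vemurafenib value plotted is the less negative one.

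Among the 8 genes that missed the threshold in DMSO were RPL23 (-2.83), RPL36 (-2.18), RPL6 (-1.77), RPL10 (-1.38), RPS24 (-0.97), RPS3A (-0.93) and RPL31 (0.02). RPL23, RPL36, RPL6 and RPS3A came near the threshold (edgeR/RRA adjusted p = 0.0715, 0.0613, 0.0725 and 0.0663), and RPL10, RPS24 and RPL31 did not (0.255, 0.73 and 1). In all of these named the 3 DMSO gene scores still lay below the 3 at day 0, as they did for 36 of the 37 members and for 48.7% of all genes. In the order of gene scores 35 of 36 neighbours differed by less than 2 SE, so ranks within the list are loose while its ends are apart.

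Guides of some of these genes lay at separate levels. RPL31 had 2 guides at -4.74 and -3.90, 1 at -1.22 and 7 between -0.32 and 0.72. RPL10, which joins the large subunit late in assembly, had 5 guides between -7.07 and -2.57 and 5 between -0.18 and 0.67. Guides to 1 gene share their target but not their cutting efficiency, which was not measured. The genome also holds many processed copies of these genes: every member has pseudogenes named after it in RefSeq, 1966 in all, with a median of 17, 64 for RPL31, 19 for RPL10 and 35 for RPL5. Whether guides also cut them was not tested.

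**Figure D3:**
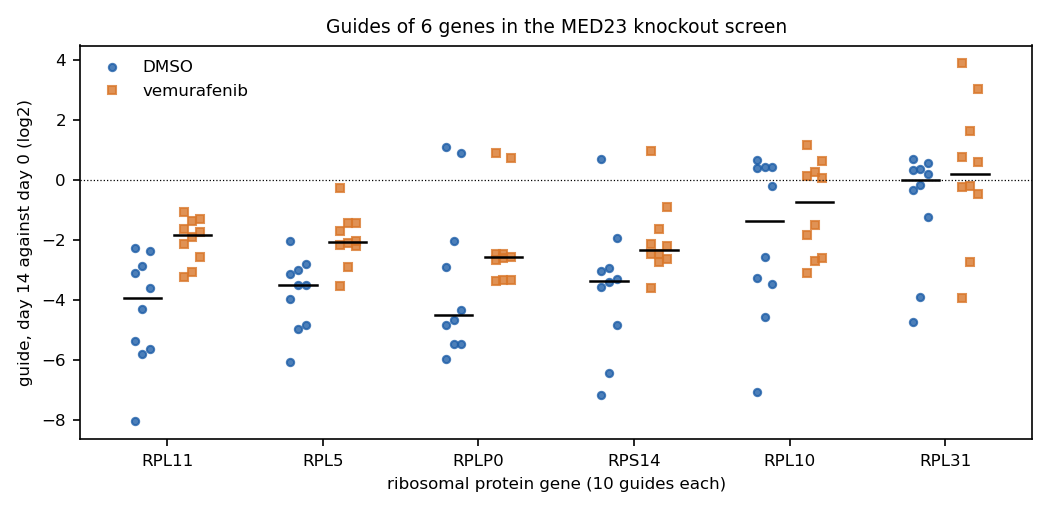
Log2 fold change from day 0 to day 14 (vertical axis) of each of the 10 guides of 6 ribosomal protein genes (horizontal axis) in the MED23 screen, in DMSO (circles) and vemurafenib (squares). Black lines are medians over guides. All guides of RPL11 and RPL5 lie below 0 in both arms, RPLP0 has 2 guides above 0, and RPL10 falls into 2 sets of 5 in DMSO.

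In 1 µM vemurafenib 28 of 37 genes had fallen by day 14 in MED23 knockout cells (10.2% of all genes called lower), with a median of -1.98 against 0.06 over all genes. The most lost were RPL18 (-3.36), RPL34 (-2.95), RPL32 (-2.63), RPLP0 (-2.56) and RPL13 (-2.47), all proteins of the large subunit, with edgeR/RRA adjusted p of 0.000288, 0.0338, 0.00425, 0.00833 and 0.0106. RPL31 (0.20), RPS3A (-0.41), RPL10 (-0.72) and RPS24 (-0.74) again lay toward the other end. RPL11, at rank 3 in DMSO by median, was at rank 23 here (-1.81) and did not pass (edgeR/RRA adjusted p = 0.147), although all 10 of its guides were below -1. The arms share their day-0 libraries. Calls in both numbered 26, with 3 in DMSO alone and 2 in vemurafenib alone, and calls in 1 arm alone are not a tested difference.

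Set directly against DMSO at day 14, ribosomal protein guides stood higher in vemurafenib in MED23 knockout cells. The median was 0.98 against 0.09 over all genes, 36 of 37 genes were positive, and 34 of 37 had all 3 vemurafenib gene scores above all 3 DMSO scores, as did 35.8% of all genes. Calls were fewer: 5 genes rose, against 7.8% of all genes. RPL11 had 107.7, 115.6 and 171.1 CPM in vemurafenib against 23.4, 34.4 and 68.3 CPM in DMSO. The ranges do not overlap, and its gene score was higher by 2.11 ± 0.48 (edgeR/RRA adjusted p = 0.0362). RPL5 had 255, 235.6 and 208.8 CPM against 83.7, 71.1 and 64.6 CPM (1.65 ± 0.11, edgeR/RRA adjusted p = 0.00138), with all 10 guides higher. The rest of the calls were proteins of the small subunit. Among them, RPS9 and RPS13 were at the edge of the threshold (1.47 ± 0.21 and 1.60 ± 0.12, edgeR/RRA adjusted p = 0.0485 and 0.0497).

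Both genes of the 5S particle were thus among the 5 that rose, and RPL11 (2.36) had the highest median of the 37. RPS26 (1.69), above RPL5, and RPL35A (1.56) and RPLP0 (1.53), below it, did not pass (edgeR/RRA adjusted p = 0.735, 0.418 and 0.349). Toward the low end stood RPL37 (0.38), RPS24 (0.40), RPL36 (0.45) and RPL23 (0.47), none of which passed (adjusted p = 0.895, 1, 1 and 0.788). RPL31 turned on 1 library: it had 477.1, 4734 and 492.2 CPM in vemurafenib, the middle value far above the other 2. Its guide 7 averaged 1000 CPM in vemurafenib against 54.3 CPM in DMSO, which accounts for only part of that value. For 35 of 37 members the 3 gene scores in vemurafenib stayed below those at day 0 (38.8% of all genes), so the direct comparison describes a smaller loss.

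These values depend on what the libraries are scaled to. In vemurafenib 33 to 475 guides held 50% of the reads of a library, against 2391 to 2405 in DMSO. The members' share of all reads was 0.808%, 0.753% and 0.607% in vemurafenib and 0.967%, 1.06% and 0.92% in DMSO, lower in the drug. Per 100 reads on control guides the members held 5.90, 8.08 and 5.47 reads in vemurafenib and 4.67, 5.20 and 4.47 in DMSO, higher in the drug. Scaled by library size alone, the members' median change in gene score was 0.03 (21 of 37 positive) and that of all genes -0.90. The members therefore stood above other genes under each scaling. Their median guide change was 0.98 with TMM and 1.19 with control guides, while the score change by library size alone was near 0. Each scaling is relative to other reads of a library, and none gives absolute numbers. Leaving out 1 library gave 2 calls (without vemurafenib library 3), 3 (without vemurafenib library 1 or DMSO library 3) or 9 (without DMSO library 2), and guides summed per gene gave 22. The shares of all genes called under these settings are not given here, so the changes need not be particular to the members.

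In MED12 knockout cells the same 370 guides were lost less from their day-0 level. By day 14 in DMSO the median over genes was -0.84 against 0.15 over all genes, 30 of 37 genes were negative, and 31 of 37 had all 3 DMSO gene scores below day 0, against 36.4% of all genes. In the model without the library number as a block, only RPL13 and RPS15A passed, 2 of 37 against 2.42% of all genes. RPS15A, a small-subunit protein, read 297.5, 276.2 and 283.7 CPM at day 0 and 153.1, 136.7 and 136.8 CPM at day 14. The groups do not overlap, all 10 guides were lower, and its gene score changed by -2.21 ± 0.27 (edgeR/RRA adjusted p = 0.0119). RPL13 read 369.1, 392.7 and 403 CPM at day 0 and 256.5, 376 and 431.3 CPM at day 14, which overlap, while its gene score, which weighs guides equally, changed by -1.72 ± 0.35 (adjusted p = 0.0154).

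RPL11 had the lowest median (-2.03) and went from 196.8, 175.9 and 186.8 CPM to 131.2, 118.2 and 135.9 CPM (-2.10 ± 0.21, edgeR/RRA adjusted p = 0.0672). RPS13 and RPS26 were also among the lowest (-1.88 and -1.61, adjusted p = 0.0672 and 0.0871), and RPL5 stood at -1.26 (adjusted p = 0.123). RPS24 (0.30), RPL31 (0.25), RPL10 (0.24) and RPL6 (0.18) were among the highest, and RPL12 and RPL37A were also just above 0 (0.10 and 0.06). Same-numbered libraries of this screen deviated together, and with the number as a block 7 genes passed, among them RPL11 (edgeR/RRA adjusted p = 0.000207), RPL7, RPS15A, RPS13, RPL13 and RPL35A. That count is given without the share of all genes passing with the block, so the gain need not be particular to the members. The 2 calls became 1 without day-0 library 3 and 0 without DMSO library 1 or 2.

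Most of the loss in MED12 knockout cells was present by day 8. At that time the median was -0.57 (0.05 over all genes), 33 of 37 genes were negative, and RPL11, RPS13 and RPS15A had fallen (-1.46, -1.45 and -1.09, edgeR/RRA adjusted p = 0.0203, 0.013 and 0.0383), 3 of 37 against 4.93% of all genes. With the replicate block 18 genes passed, from RPL11 (-2.21, edgeR/RRA adjusted p = 0.000284) to RPL27 (-0.82, adjusted p = 0.0155), with RPL5, RPL32, RPL13A and RPS9 among them. The share of all genes passing with the block is not given here, so the larger count need not be particular to the members. The count without the block was 6 without day-0 library 1 or DMSO library 1, 7 without DMSO library 2 and 9 without DMSO library 3. From day 8 to day 14 the median moved by a further -0.11 (0.10 over all genes). No member passed by edgeR/RRA (0.717% of all genes called lower), 6 had an unadjusted p under 0.05, DESeq2 called 1, and the block added RPL13 (edgeR/RRA adjusted p = 0.0381) and RPL35A (0.0395).

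The whole-genome library shows the remaining 40 proteins with 4 guides each and much lower counts: median counts of member guides at day 0 were 209, 185.5 and 235.5 per library. Of 77 genes 76 had 3 or more testable guides. By day 14 in DMSO, 17.5% of member guides had 0 reads in all 3 libraries, against 1.66% of guides for other genes, 0.5% of control guides, and 0.325% of member guides at day 0. In single libraries 39.6%, 45.1% and 45.1% of member guides were at 0. The median over genes was -1.78 (-1.64 with guides at 0 set to 3 counts per library, 0.30 over all genes), and 67 of 76 genes were negative. Gene scores of all 3 DMSO libraries lay below day 0 for 46 of 76, against 19.9% of all genes.

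RPL27 and RPL19, both of the large subunit, were the 2 of 76 that passed there (0.12% of all genes called lower). RPL27 had 3.53, 3.54 and 3.04 CPM at day 0 and 0.0187, 0 and 0 CPM at day 14. Its gene score changed by -1.39 ± 0.03 (edgeR/RRA adjusted p = 0.00531), a value that the added 0.5 CPM keeps small. With guides at 0 set to 3 counts its median guide was at least 4.09 lower (log2). RPL19, at the tunnel exit, had 11.5, 8.74 and 13.5 CPM at day 0 and 1.16, 0.206 and 0.442 CPM at day 14 (-2.06 ± 0.26, edgeR/RRA adjusted p = 0.0444). By median guide RPS2 (at least 3.04 lower), RPL34 (at least 4.78) and RPL23 (at least 5.21) were next to RPL27, without passing (adjusted p = 0.342, 0.387 and 0.0788). Summed over guides, RPS2 went from 9.28, 15.0 and 8.00 CPM to 4.81, 62.5 and 3.69 CPM. RPL34 went from 6.23, 4.39 and 3.72 CPM to 9.66, 0.525 and 0.0442 CPM, so both overlap day 0. At the other end stood RPL8 (1.90), RPS9 (1.44), RPL22 (1.22), RPS28 (0.88) and RPL39 (0.60), and none of these passed (edgeR/RRA adjusted p = 1, 0.92, 0.929, 1 and 0.938). RPL22, which has a close paralog, RPL22L1, was the member whose 4 guides were all above 0, with 21.2, 24.6 and 25.2 CPM at day 0 and 119.7, 42.4 and 74.4 CPM at day 14. The 2 calls became 1 without DMSO library 2 or with the replicate block, which kept RPL19 (edgeR/RRA adjusted p = 0.039), and 0 without DMSO library 3.

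At day 8 the whole-genome screen called 5 of 76 members lower (0.236% of all genes), again RPL27 and RPL19 and also RPS20, RPL13A and RPL23 (edgeR/RRA adjusted p = 0.000579, 0.0227, 0.0406, 0.0356 and 0.033). RPL27 ranked first of all genes by median. RPL13A moved the other way when its guides were summed. The replicate block gave 9 genes, among them RPL27, RPS2, RPL6, RPL10, RPS12, RPLP2 and RPL19, and lost RPS20, RPL13A and RPL23 (edgeR/RRA adjusted p then 0.0887, 0.0739 and 0.126). The share of all genes with the block is not given here either. Without DMSO library 1 or 2 the count was 2. From day 8 to day 14 RPL19 alone passed (at least 1.88 lower, edgeR/RRA adjusted p = 0.0402, 0.0262% of all genes called lower), and leaving out any 1 of the 6 libraries removed the call, as did the replicate block.

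RPL5 and RPL11 did not pass in the whole-genome screen. RPL5 went from 17.1, 24.1 and 26.9 CPM to 7.87, 369.8 and 115.7 CPM, which overlap, with its guide 3 going from 2.81 to 151 CPM on average while guide 1 stood at -3.33. Its gene score changed by -0.13 ± 1.02 (edgeR/RRA adjusted p = 1). RPL11 had 3 testable guides, at 2.54 and -0.54 and, for guide 3, at 0 reads in all 3 DMSO libraries. Its sums of 13.6, 14.4 and 0.332 CPM at day 14 lay on both sides of the 4.16, 3.44 and 5.68 CPM at day 0. RPL31 likewise turned on 1 guide in 1 library, with 122.5, 0.468 and 0.487 CPM at day 14 from 9.97, 7.38 and 8.16 CPM at day 0. Its guide 1 averaged 40.8 CPM at day 14, guides 2 and 4 stood at -4.26 and -3.85, and guide 3 was at 0.

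Over the 36 genes tested with both libraries in MED12 knockout cells, day-14 changes had r = -0.21 (Spearman's rho -0.27), a description over genes that are not replicates. Over the 37 genes tested with the same guides in both knockouts they had r = 0.75 and rho 0.72. The points of the latter share guide sequences, and those of the former share the knockout only.

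**Figure D4:**
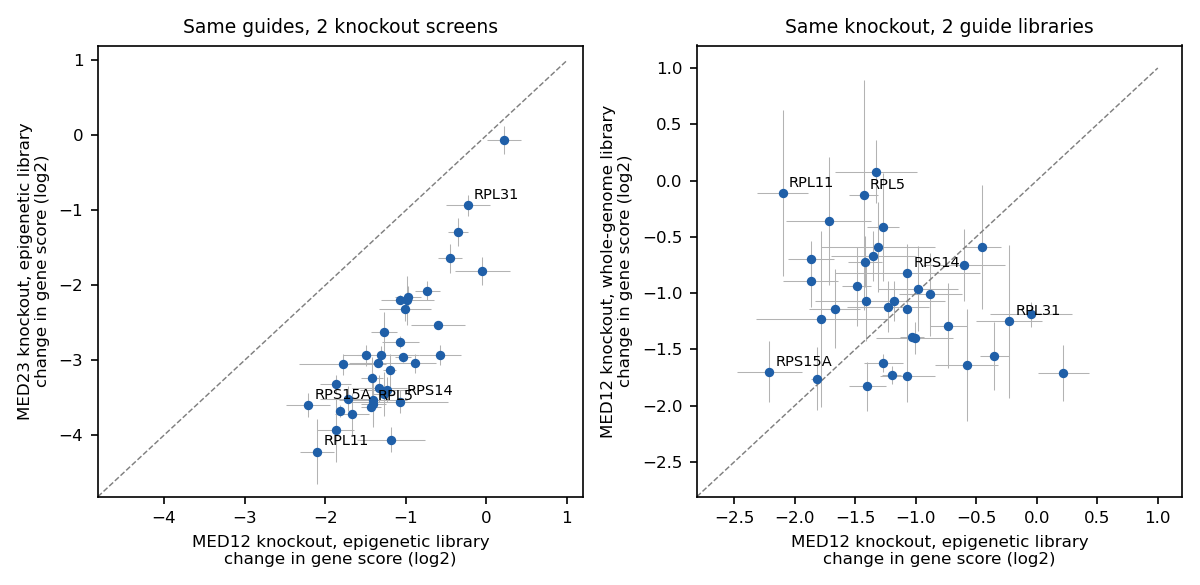
Change in gene score in DMSO from day 0 to day 14 (log2) of ribosomal protein genes, MED12 against MED23 knockout cells with the same guides (left, 37 genes) and the epigenetic against the whole-genome library in MED12 knockout cells (right, 36 genes). Bars are SE from 3 libraries per group and the dashed line marks equal values. On the left all 37 genes lie below the line, with RPL11 near -4 on the vertical axis. On the right they show no shared order (r = -0.21 for median guides).

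Compared in 1 model, growth in DMSO removed more of the ribosomal protein guides in MED23 than in MED12 knockout cells. All 37 differences of the day-14 changes were negative, with a median of -1.72 against -0.16 over all genes, and 8 genes passed (3.95% of all genes). RPS14, a small-subunit protein whose loss contributes to the anaemia of 5q- syndrome, differed most: -3.79, with medians of -0.26 in MED12 and -3.35 in MED23 knockout cells. It read 421.4, 386.7 and 405.3 CPM at day 0 and 298.7, 212.7 and 588.4 CPM at day 14 in MED12 knockout cells. In MED23 knockout cells it went from 599.9, 593.6 and 601.3 CPM to 153.2, 198.4 and 200.7 CPM, so only the latter groups are apart. RPL5 differed by -2.75 (gene score difference -2.12 ± 0.13, edgeR/RRA adjusted p = 0.000713), and RPL11 by -1.75 without passing (adjusted p = 0.501). The other members that passed were RPL7A, RPL26, RPL34, RPL37A, RPL27 and RPL35A. Without MED12 DMSO library 3 none of the 8 calls was left. With guides summed 18 genes passed, with the replicate block 3 and with control scaling 1 (2.42% of all genes called lower with control scaling). The shares of all genes with summed guides or the block are not given here. The count was 4 without MED12 DMSO library 2 or MED23 DMSO library 3, and 5 without MED12 DMSO library 1 or MED23 day-0 library 1.

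The knockouts also differed in starting level, and the part of this in the difference of loss was not tested. At day 0 all 37 genes stood lower in MED12 than in MED23 knockout cells, by a median of -1.26 against -0.11 over all genes, and for 36 of 37 the gene scores did not overlap (53.5% of all genes were lower without overlap). Of these RPL12 and RPL18 passed (-1.82 and -1.76, edgeR/RRA adjusted p = 0.0423 and 0.03), 2 of 37 against 1.08% of all genes. RPL7 (-2.26) and RPL11 (-1.84) were the lowest by median (adjusted p = 0.0583 and 0.111). RPS7, RPS24 and RPL14 were among those that differed least (-0.06, -0.10 and -0.19). By day 14 in DMSO 34 of 37 stood higher in MED12 knockout cells, with a median of 0.67 against 0.20 over all genes. No member passed (1.61% of all genes called higher), 1 had an unadjusted p under 0.05 by edgeR/RRA, and DESeq2 called 0. RPS14 (2.29), RPL12 (1.65), RPL5 (1.51) and RPL7A (1.46) were highest there. The exceptions were RPL7 (-0.31), RPS3A (-0.16) and RPL31 (-0.13). These 2 comparisons of levels were added with the other results in view. They set separate screens against each other, so knockout, infection and sequencing run cannot be told apart. At day 0 the count of 2 became 1 without day-0 library 2 of either screen, with the replicate block or with the day-0 minimum, 0 with control-guide scaling and 12 with summed counts. At day 14 the count of 0 became 10 with summed counts and 1 without MED23 DMSO library 2.

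**Figure D5:**
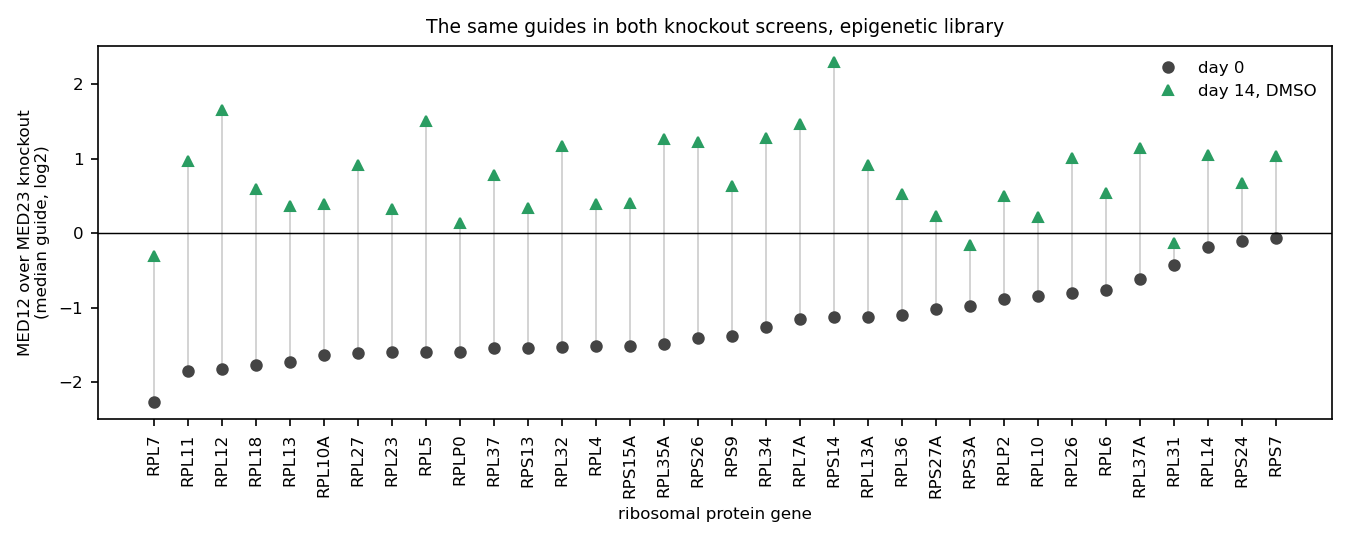
Log2 ratio of MED12 over MED23 knockout cells for the median guide of 34 of the 37 ribosomal protein genes (horizontal axis, sorted by day 0), at day 0 (circles) and at day 14 in DMSO (triangles); vertical lines join the values of a gene. All day-0 values are below 0 (-2.26 to -0.06), and all day-14 values but those of RPL7, RPS3A and RPL31 are above it.

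Without the replicate block, few of these genes passed as lower than at day 0 under vemurafenib at either day in MED12 knockout cells. Most medians were negative. None passed against DMSO. With the epigenetic library 1 of 37 genes passed as lower than at day 0 by day 14 of the drug (0.987% of all genes called lower). This was RPL32 (-1.77, edgeR/RRA adjusted p = 0.00599), with RPL11, RPS26, RPS15A and RPL10A around it (-1.95, -1.87, -1.57 and -1.56, adjusted p = 0.125, 0.0969, 0.186 and 0.246). The median was -0.73, against -0.84 in DMSO from the same day-0 libraries. Members at ranks 1 to 30 of 37 had negative medians in the drug, the last of them RPS14 (-0.04). RPL11, RPL32, RPS13 and RPL27 passed with the block, and the count was 0 without vemurafenib library 1 and 2 without vemurafenib library 3. Against DMSO the median was 0.13 (gene scores -0.20 without TMM) at day 14 and 0.09 at day 8 (0.07 and 0 over all genes). No member rose or fell at either day by edgeR/RRA or DESeq2 (0.897% and 1.08% of all genes called higher, 0.538% and 0.628% lower), and 1 and 4 had an unadjusted p under 0.05. RPL37A stood highest at day 14 (1.06, edgeR/RRA adjusted p = 0.408), followed by RPL5 (0.72, adjusted p = 0.989), and RPS3A lowest (-0.40, adjusted p = 1). RPL5 read 189.7, 225.8 and 517.6 CPM in the drug and 197.5, 310 and 247.8 CPM in DMSO, which overlap.

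In the whole-genome screen RPL27 was the 1 of 76 members that passed as lower by day 14 of vemurafenib (0.0157% of all genes called lower). It was at 0 reads in all 3 libraries (edgeR/RRA adjusted p = 0.0148), so its median guide was at least 3.10 lower (log2). The median over members was -1.70 (-1.46 with 0 set to 3 counts), and the call was lost without any 1 of the 3 vemurafenib libraries or with the replicate block. Against DMSO no member passed at day 14 or day 8 by edgeR/RRA or DESeq2 (0% and 0.0105% of all genes called higher, 0% and 0.0157% lower), with 5 and 29 at an unadjusted p under 0.05. The direction of these members and the share of all genes at that p are not given here, so the 29 is not read as a result about them. Without DMSO library 1, 1 member passed at day 8. The members' medians were 0.27 and 0.16 (0.06 and 0.02 over all genes), and that of gene scores at day 14 was -0.12 without TMM.

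At day 8 of the drug the epigenetic screen called 3 of 37 members lower than at day 0, against 4.04% of all genes. RPL32, a large-subunit protein, read 341, 310.8 and 324.2 CPM at day 0 and 212.4, 171.7 and 203.4 CPM in vemurafenib, which do not overlap (-1.09, edgeR/RRA adjusted p = 0.00573). RPL10A (-0.90) and RPLP0 (-0.51) passed as well (edgeR/RRA adjusted p = 0.0214 and 0.0297). The median was -0.51, against 0.04 over all genes, and 33 of 37 were negative. The replicate block gave 12, among them RPL11 (-1.55), RPL5 (-0.98) and RPL32 (-1.32) but not RPLP0 (edgeR/RRA adjusted p then 0.00537, 0.0379, 0.000509 and 0.149). The share of all genes passing with the block is missing here too. The count was 6 without vemurafenib library 3 and 0 with control-guide scaling or summed counts. In the whole-genome screen 5 of 76 were called lower (0.152% of all genes): RPL27, RPS20, RPS14, RPL13A and RPL19 (edgeR/RRA adjusted p = 0.00274, 0.0286, 0.0469, 0.0249 and 0.0291). RPS14 read 2.53, 3.69 and 2.92 CPM at day 0 and 0.0313, 2.87 and 0.366 CPM in vemurafenib, which overlap. RPL27 read 3.53, 3.54 and 3.04 CPM and then 0.334, 0.0702 and 0.293 CPM, which do not. The median was -0.91 (0.14 over all genes), and 65 of 76 were negative. The block also gave 5, of which RPS14 was called without it too, and the count was 1 without vemurafenib library 1 or with the day-0 minimum, 2 with DESeq2 and 0 with summed counts. This comparison was added with the other results in view and shares its day-0 libraries with that of DMSO.

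In the model as fitted no difference of the drug effect by day or by knockout passed the threshold. From day 8 to day 14 no member's effect changed by edgeR/RRA or DESeq2 in the epigenetic screen (0.538% of all genes called higher and 0% lower, 2 members at an unadjusted p under 0.05) or in the whole-genome screen (0% of all genes called in each direction, 15 members at an unadjusted p under 0.05). Between knockouts, at different doses, the day-14 effect in MED23 minus that in MED12 had a median of 0.72 over members (-0.11 over all genes) with 31 of 37 positive. None passed by edgeR/RRA or DESeq2 (3.14% of all genes called higher and 1.08% lower), 5 had an unadjusted p under 0.05, and RPL11 was the highest (1.97, edgeR/RRA adjusted p = 0.113). The count was 1 with the replicate block (RPL11), 2 with summed counts, 2 without MED12 vemurafenib library 3 or MED23 DMSO library 3, and 1 without MED23 DMSO library 2.

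Genes that act with the ribosome were measured beside its proteins. In the MED23 screen 4 of 5 factors of 60S assembly fell in DMSO (median -2.05): DDX51, a helicase (-3.79), SDAD1 (-2.82), PELP1 (-2.05) and FTSJ3, an rRNA methyltransferase (-1.84), with edgeR/RRA adjusted p of 0.0186, 0.00301, 0.0224 and 0.0245. Of 5 translation factors 4 fell (median -2.0), led by EEF2, the elongation factor that moves the ribosome along the mRNA (-3.61, edgeR/RRA adjusted p = 0.00588), and EIF3D and EIF3A of the initiation complex eIF3 (-2.01 and -2.0, adjusted p = 0.0066 and 0.00306). The 10 proteasome genes, a machine unrelated to the ribosome, had 5 that fell (median -2.65). Against DMSO in vemurafenib the medians of these 3 lists were 0.89, 0.89 and 1.13, near the ribosomal proteins' 0.98, with 1, 1 and 3 genes called higher. MDM4, a relative of MDM2, fell in DMSO (-2.71, edgeR/RRA adjusted p = 0.00126). There MDM2 (-1.46) and CDKN1A, an inhibitor of the cell cycle (0.85), did not pass (adjusted p = 0.367 and 0.0991). In vemurafenib against day 0, CDKN1A rose (1.14) and MDM2 (-1.96) and MDM4 (-1.59) fell (edgeR/RRA adjusted p = 0.00324, 0.0387 and 0.0254). In the MED12 epigenetic screen at day 14 in DMSO CDKN1A rose (1.35, edgeR/RRA adjusted p = 0.000148). MDM4 (-1.69) and MDM2 (-0.68) did not pass there (adjusted p = 0.152 and 0.35).

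In the whole-genome screen at day 14 in DMSO 0 of 10 paralogs of ribosomal proteins passed by edgeR/RRA (0 at an unadjusted p under 0.05, median -0.04, against -1.78 for the 76 members). They included RPL7L1 (-0.90), RPL39L (-0.63), RPL3L (-0.33), RPL36AL (-0.29), RPL22L1 (-0.23) and RPL10L (1.57). FAU, which encodes a ribosomal protein fused to a ubiquitin-like protein, stood at -4.31, and RACK1, a 40S protein outside the naming scheme, at -4.10 (edgeR/RRA adjusted p = 0.215 and 0.314). Factors of 40S assembly (54 genes, 0 passed, 20 at an unadjusted p under 0.05) and of 60S assembly (53, of which RRP1 passed, edgeR/RRA adjusted p = 0.0143) had medians of -1.60 and -1.49 (-1.30 with 0 set to 3 counts), and RNA polymerase I, which transcribes rRNA, -1.44 (11 genes, 0 passed, 4 at an unadjusted p under 0.05). Translation factors lay at -0.96 (38 genes, 0 passed, 11 at an unadjusted p under 0.05), mitochondrial ribosomal proteins, which build the separate ribosome of that organelle, at -0.88 (78, 0 passed, 24 at that p), proteasome genes at -0.86 (39, 0 passed, 10 at that p) and the snoRNP core at -0.03 (4, 0 passed, 1 at that p). The counts at an unadjusted p have no direction and no share of all genes beside them. They are not read as results about these lists.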

How the data were processed

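Each of 3 deposited tables holds the unnormalised read counts of every guide in the libraries of 1 screen. Reads were handled with bcl2fastq, HISAT2 and HTSeq, per the submitters' processing notes, which as used here name no versions. With edgeR 4.0.16 (R 4.3.3), filterByExpr (minimum count 10) removed sparse guides, TMM scaled the libraries, and 1 quasi-likelihood model was fitted per table. Knockouts were compared in a joint model of the epigenetic libraries of days 0 and 14. DESeq2 1.42.0 was an alternative, as were control-guide scaling, a day-0 minimum, summed counts and leaving out each library. Member counts under an alternative or the replicate block are mostly given without the share of all genes under it. Guide ranks were combined per gene, 2-sided, by robust rank aggregation (RRA, alpha 0.25) with exact p, and Benjamini-Hochberg adjusted over every gene that kept 3 or more guides (threshold 0.05), written edgeR/RRA adjusted p. The rank test is relative to other guides of the table. Counts at an unadjusted p under 0.05 are given without direction or the share of all genes at that p. Fold changes are medians over guides. Gene scores are means of log2(TMM-scaled CPM + 0.5). The steps were tested on simulated counts for growth to day 14. There all guides of a gene had the same change and libraries were drawn independently. Real guides of a gene differed, and same-numbered libraries of the MED12 screens deviated together. The shares called that follow therefore need not hold for these data. Of genes with a true log2 change of -2, 100% were called in each epigenetic screen and 6% in the whole-genome screen (52% at -3). At -1 the share was 94% in the MED23 and 48% in the MED12 epigenetic screen. At most 0.109% of unchanged genes were called. Counts of calls are therefore not comparable between screens, and few calls in the whole-genome screen do not show that loss was absent. Members and lists were chosen with earlier results of these data known. In full were named the 5 lowest and 5 highest members of a comparison, members that passed or, for growth to day 14 in MED23 knockout cells, did not, and RPL5 and RPL11; other genes came from fixed lists. In both MED12 screens same-numbered libraries deviated together (r = 0.34 to 0.89 and 0.47 to 0.88, other pairs below 0). The main calls and the SE of gene scores do not use this pairing. Values with the number as a block are given where they change a count. In the MED23 screen same-numbered libraries did not deviate together (r = -0.18 to 0.32). No 2 libraries of a group agreed within counting noise. Values of some genes are not reported here.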

Additional observations from a re-analysis of the deposited data

Results flagged for a closer look

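In the test of the difference between knockouts, 8 members lost more guide reads in MED23 than in MED12 knockout cells during growth in DMSO. The differences of median log2 change were -3.79 for RPS14, -2.75 for RPL5, -2.72 for RPL7A, -2.63 for RPL26, -2.57 for RPL34, -2.37 for RPL37A, -2.25 for RPL27 and -1.50 for RPL35A (edgeR/RRA adjusted p = 0.0292, 0.000713, 0.0429, 0.048, 0.0451, 0.0493, 0.0323 and 0.0429). The median change in MED12 and in MED23 knockout cells was -1.09 and -3.35 for RPL7A, -0.44 and -3.40 for RPL26, -0.67 and -3.49 for RPL34, 0.06 and -3.11 for RPL37A, -1.05 and -2.92 for RPL27, and -0.90 and -2.38 for RPL35A. All 8 also started lower at day 0 in MED12 knockout cells, by -0.61 (RPL37A) to -1.61 (RPL27), and its part in the difference was not tested. Over 18 alternatives RPL5 passed in 17 and RPL34 in 7.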

How the results depend on the processing

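Scaling on control guides moved the median of all genes in the MED23 screen from 0.06 to -0.97 and that of the members from -2.98 to -4.01 (DMSO to day 14), kept all 37 negative, and brought the members called lower to 8, and to 9 in vemurafenib, with 2 higher against DMSO. It gave 0 (day 14), 0 (vemurafenib day 14) with the epigenetic library in MED12 knockout cells, 1 (day 14), 1 (day 8) and 0 (vemurafenib) with the whole-genome library, 1 for the difference of growth between knockouts and 0 for the level at day 0. DESeq2 called 4 (day 14), 1 (day 8 to 14) and 4 (vemurafenib) in the MED12 epigenetic screen and 0, 1 (day 8), 0 and 0 in the whole-genome screen. Requiring 50 counts at day 0 gave 1 (day 8 to 14) and, in the whole-genome screen, 1, 2 (day 8), 0 and 0, and 1 for the level at day 0. The replicate block gave 7, 18, 2 and 4 (day 14, day 8, day 8 to 14, vemurafenib) in the MED12 epigenetic screen, 1, 9, 0 and 0 in the whole-genome screen, 3 and 1 for the differences of growth and of the drug effect between knockouts, and 1 for the level at day 0. In the MED23 screen, where the numbers did not pair, it gave 28, 28 and 6 members (29, 28 and 5 without it). Summed counts per gene gave 5, 1 and 4 (day 14, day 8, vemurafenib) in the MED12 epigenetic screen, 1, 0, 0 and 3 in the whole-genome screen, 22 higher against DMSO in MED23 knockout cells, 18 and 2 for the differences, and 12 and 10 for the levels at day 0 and day 14. RPL13A at day 8 in the whole-genome screen turned from -3.88 to 0.21. Leaving out 1 library gave 26 to 30, 21 to 28 and 2 to 9 members in the MED23 screen (DMSO, vemurafenib, drug against DMSO), 0 to 3, 3 to 9, 0 to 0 and 0 to 2 in the MED12 epigenetic screen, 0 to 3, 2 to 5, 0 to 0 and 0 to 1 in the whole-genome screen, where drug against DMSO at day 8 gave 0 to 1, and 0 to 9 and 0 to 2 for the differences and 1 to 3 and 0 to 1 for the levels at days 0 and 14. Control guides moved the medians of all genes and of members from 0.15 to -0.26 and -0.84 to -1.26 in the MED12 epigenetic screen, and from 0.30 to -0.37 and -1.78 to -2.44 with the whole-genome library. With 5 CPM added in place of 0.5, the members' median score change to day 14 went from -3.04 to -2.04 (MED23), -1.23 to -0.66 (MED12) and -0.98 to -0.13 (whole-genome). Vemurafenib at day 8 against day 0 gave 0 members with control guides, 12 with the block, 0 with summed counts and 2 to 6 leaving out 1 library with the epigenetic library in MED12 knockout cells, and 2 (DESeq2), 1 (day-0 minimum), 0 (summed counts) and 1 to 6 (leaving out 1 library) with the whole-genome library. The causes were not tested. Counts under these alternatives are given here without the share of all genes under the same setting, so changes in them need not be particular to the members. Low counts per guide limit the whole-genome values. For single members, 1377 of the values kept their side of the threshold, 281 lost it, 27 gained it and 1 changed sign.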
